A study of Mus musculus with 10 samples.

Results

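Cytochrome P450 family 4 is represented here by 10 genes of the mouse liver transcriptome, Cyp4a10, Cyp4a12a, Cyp4a12b, Cyp4a14, Cyp4a31, Cyp4a32, Cyp4f13, Cyp4f14, Cyp4f15 and Cyp4v3. They were taken by gene name, as 10 of the 31218 genes in the deposited table. RNA-seq was done on livers of 10 mice, 5 floxed littermates with the genotype label Me1 flox/flox (Flox) and 5 hepatocyte-specific knockouts of Me1 with the genotype label Me1 Alb/Alb (HKO). Mice of both groups had eaten a high-fat diet for 16 weeks, and the study asked what the loss of Me1, which encodes an NADPH-producing malic enzyme of the cytosol, does in fatty liver disease. Sex, age, litter and batch are absent from the labels, which also do not name the promoter that drives recombination. The labels number each liver separately, so livers were taken as separate mice, and p-values measure the spread between these libraries.

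Family 4 P450 enzymes sit in the endoplasmic reticulum and put a hydroxyl group on the far (omega) end of a fatty acid chain, using electrons that NADPH supplies through P450 oxidoreductase. The hydroxylated acid is then oxidised by alcohol and aldehyde dehydrogenases to a dicarboxylic acid, which peroxisomes shorten. In mouse liver Cyp4a10 and Cyp4a14 are classical targets of the fatty acid receptor PPARa, Cyp4a12a is known as a male-biased arachidonic acid hydroxylase, and Cyp4f enzymes are known for inactivating leukotrienes.

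The 10 genes lie in 3 places of the genome (coordinates as deposited, equal to those of GRCm38). The 6 Cyp4a genes share 323 kb of chromosome 4 (chr4:115299046-115621602), the 3 Cyp4f genes share 262 kb of chromosome 17 (chr17:32685627-32947402), and Cyp4v3 stands alone on the minus strand of chromosome 8 (chr8:45304944-45333216). How close the copies are bears on how reads can be told apart, so their coding sequences (GENCODE M21 transcripts) were aligned. Cyp4a12a and Cyp4a12b were 98.5% identical, with 23 of 1524 bases different. Cyp4a10 was 97.2% identical to Cyp4a32 and 96.6% to Cyp4a31, while Cyp4a14 stood further off at 75.7% to 76.8% of the other Cyp4a genes. Identity was 76.6% to 82.1% within Cyp4f, 61.0% to 65.8% between Cyp4a and Cyp4f, and 58.4% to 60.3% between Cyp4v3 and the rest.

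The stretch of the coding sequence that encodes the haem-binding loop, the signature of a P450 enzyme, shows the same grouping. It is printed 5′ to 3′ as 30 coding bases, with capitals at bases that differ from Cyp4a10. In every gene an intron interrupts the genomic span of these bases, which for Cyp4a10 is chr4:115529502-115532543 on the plus strand of GRCm38. Cyp4a31 and Cyp4a32 have the same bases as Cyp4a10, and Cyp4a12b has those of Cyp4a12a.
Cyp4a10: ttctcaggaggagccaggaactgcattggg
Cyp4a12a: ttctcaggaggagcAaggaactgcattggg
Cyp4a14: ttctcaggaggaTcAaggaactgcattggg
Cyp4f13: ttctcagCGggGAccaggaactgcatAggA
Cyp4f14: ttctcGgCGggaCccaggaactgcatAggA
Cyp4f15: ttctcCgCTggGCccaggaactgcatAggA
Cyp4v3: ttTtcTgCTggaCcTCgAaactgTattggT
Within the loop the Cyp4a genes differ from Cyp4a10 at 0 to 2 bases, the Cyp4f genes at 6 or 7, and Cyp4v3 at 10.

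The targeted gene was checked first: Me1 had 36.4 ± 6.18 FPKM in Flox and 5.58 ± 0.841 in HKO (n = 5 each, mean ± SD as in all values below; log2 change -2.93, edgeR quasi-likelihood adjusted p = 8.5e-07), with no overlap. Depth was 52790000 to 60765120 counts per liver. Hepatocyte markers were abundant in both groups, with Alb at 23860 ± 1915 FPKM in Flox and 22487 ± 1634 in HKO, and their summed level over 16 genes was 135329 to 155852 CPM (TMM-scaled) in Flox and 95408 to 118768 in HKO. HKO 4 and HKO 5 carried more RNA of skeletal muscle and epidermis markers than the other livers: the summed muscle markers reached 293 CPM in HKO against at most 7.52 in Flox, and the epidermis markers 444 against 84.0. Results are therefore also given without these 2 livers where that changes them.

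In HKO livers 8 of the 10 Cyp4 genes fell, 0 rose and 2, Cyp4a12a and Cyp4a12b, did not pass the test, also unadjusted (edgeR quasi-likelihood test on counts, Benjamini-Hochberg adjusted p under 0.05 over 18065 tested genes). Of all tested genes 6.4% were called lower and 4.86% higher. The falls ran from a log2 fold change (log2 change below, HKO minus Flox) of -0.42 in Cyp4v3 to -1.02 in Cyp4a32. The median over the 10 genes was -0.78, against 0.016 over all tested genes. In all 8 genes each HKO liver lay below each Flox liver on the CPM scale, a pattern seen in 6.48% of tested genes, and in 0 genes each was above (4.41%). Without HKO 4 and HKO 5, 7 of the 10 genes were lower and 0 higher, against 2.91% and 2.45% of all genes, and the median was -0.68. In whole livers, fewer hepatocytes and less RNA per hepatocyte cannot be told apart, and 6 of 16 hepatocyte markers were also lower (median -0.40). Their part in the Cyp4 values was not tested.

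**Figure D1:**
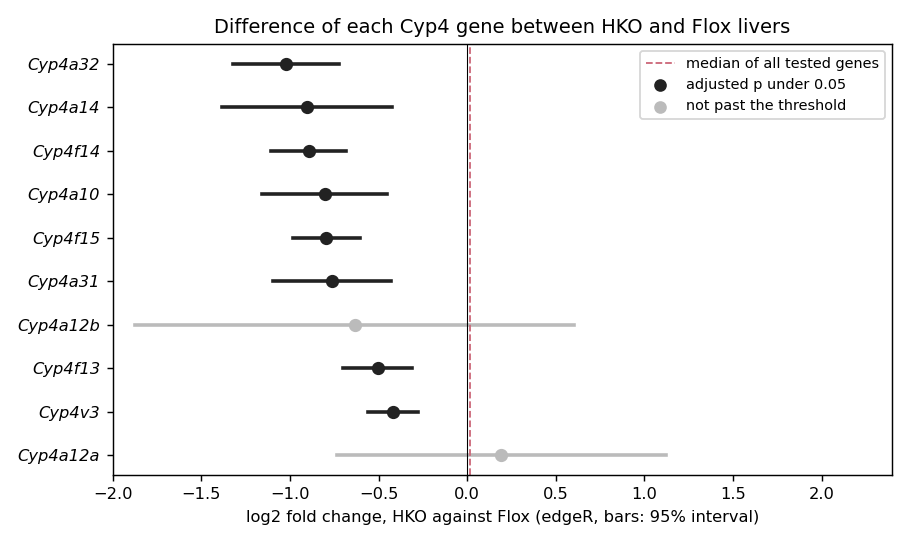
Log2 fold change of each Cyp4 gene, HKO against Flox (edgeR, n = 5 each), on the horizontal axis, with bars for the 95% interval. Black genes passed an adjusted p of 0.05 and grey genes did not. The intervals of Cyp4a12a and Cyp4a12b span 0 and are the widest of the 10, and the dashed line is the median of all tested genes.

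The most abundant members are the PPARa-responsive pair Cyp4a14 and Cyp4a10. Cyp4a14 (ENSMUSG00000028715, chr4:115486200-115496142, minus strand) had 1367, 1438, 1140, 1275 and 1263 FPKM in Flox 1 to 5 and 1129, 977, 585, 776 and 529 FPKM in HKO 1 to 5. HKO 1 was just below the lowest Flox liver, and HKO 3 and HKO 5 were below the rest. Its mean was 1297 ± 113 in Flox and 799 ± 255 in HKO, with a log2 change on counts of -0.90 (SE 0.22, edgeR adjusted p = 0.0236). The Cyp4a14 call is the least stable of the 8: the adjusted p was 0.0982 without HKO 4 and HKO 5 (log2 change -0.69), 0.0588 with no filter on low counts, and 0.0505 to 0.0549 when Flox 2, Flox 4, HKO 3 or HKO 4 was left out. Its direction did not change in any of these fits.

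Cyp4a10 (ENSMUSG00000066072, chr4:115518264-115533649, plus strand) had 931, 1203, 967, 1066 and 1054 FPKM in Flox 1 to 5 and 885, 716, 588, 775 and 493 FPKM in HKO 1 to 5. All HKO livers were below all Flox livers, with HKO 1 nearest to them. The mean went from 1044 ± 106 to 691 ± 154 FPKM, with a log2 change of -0.80 (SE 0.16, edgeR adjusted p = 0.00963). In Flox livers Cyp4a14 ranked 59 and Cyp4a10 ranked 67 among all 31218 genes by mean FPKM. Together they made up 84.5% to 86.6% of the summed FPKM of the 10 genes in Flox and 77.3% to 86.9% in HKO. The summed FPKM was 2728 ± 218 in Flox and 1797 ± 420 in HKO, so the total in each liver follows these genes above all.

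Cyp4a31 and Cyp4a32, the close copies of Cyp4a10, were expressed at lower levels. Cyp4a31 (ENSMUSG00000028712, chr4:115563649-115579015, plus strand) had 45.5, 51.5, 45.4, 53.7 and 54.7 FPKM in Flox 1 to 5 and 43.4, 34.7, 30.9, 37.5 and 25.0 FPKM in HKO 1 to 5. The groups did not overlap, and the highest HKO liver and the lowest Flox liver were close. Its log2 change was -0.76 (SE 0.15, edgeR adjusted p = 0.00934). Cyp4a32 (ENSMUSG00000063929, chr4:115600969-115621602, plus strand) had 76.6, 56.3, 53.7, 58.9 and 56.8 FPKM in Flox 1 to 5 and 40.8, 35.3, 28.4, 35.5 and 33.1 FPKM in HKO 1 to 5. The gap between the groups was wide, and Flox 1 stood above the other Flox livers. Its log2 change of -1.02 (SE 0.14, edgeR adjusted p = 0.00128) was the largest fall of the 10.

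Reads can be shared between these copies. Of the stretches of 150 bases (the read length) in the GENCODE transcript, 7.97% in Cyp4a32, 4.34% in Cyp4a10 and 4.19% in Cyp4a31 were found unchanged in another Cyp4 gene, and 0 in Cyp4a14, the Cyp4f genes and Cyp4v3. The sources used here do not say how the authors assigned shared reads, so the split between the copies is uncertain. Summed as 1 unit, Cyp4a10, Cyp4a31 and Cyp4a32 had a log2 change of -0.81 (SE 0.16, edgeR adjusted p = 0.00828).

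Cyp4a12a and Cyp4a12b, the male-biased hydroxylases, behaved differently from the rest in their spread. Cyp4a12a (ENSMUSG00000066071, chr4:115299046-115332815, plus strand) had 51.4, 77.0, 17.1, 33.9 and 63.0 FPKM in Flox 1 to 5 and 89.4, 28.5, 44.5, 90.2 and 71.8 FPKM in HKO 1 to 5. The groups overlapped over most of their range, and livers of 1 group differed several-fold. Its mean was 48.5 ± 23.6 in Flox and 64.9 ± 27.5 in HKO, with a log2 change of 0.19 (95% interval -0.74 to 1.12, edgeR adjusted p = 0.813).

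Cyp4a12b (ENSMUSG00000078597, chr4:115411624-115439034, plus strand) had 7.97, 21.2, 5.12, 17.6 and 26.0 FPKM in Flox 1 to 5 and 15.2, 3.41, 5.64, 23.7 and 11.3 FPKM in HKO 1 to 5. Here too the groups overlapped, with the lowest value in HKO 2 and the highest in Flox 5. Its log2 change was -0.64 (95% interval -1.88 to 0.60, edgeR adjusted p = 0.511). Falls as large as those of Cyp4f13 and Cyp4v3 lie within both intervals, and that of Cyp4a12b also holds the fall of Cyp4a32. The interval of Cyp4a12a does not reach the fall of Cyp4a31 (-0.76) or those of the members that fell more. The within-group SD of log2 CPM was 1.05 in Cyp4a12b and 0.79 in Cyp4a12a, against a median of 0.29 over tested genes and 0.083 in Cyp4v3. Part of the transcript could not be told apart between the copies: 25.6% of the 150-base stretches of Cyp4a12a and 25.9% of those of Cyp4a12b were shared. Their sum had a log2 change of 0.032 (edgeR adjusted p = 0.971).

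**Figure D2:**
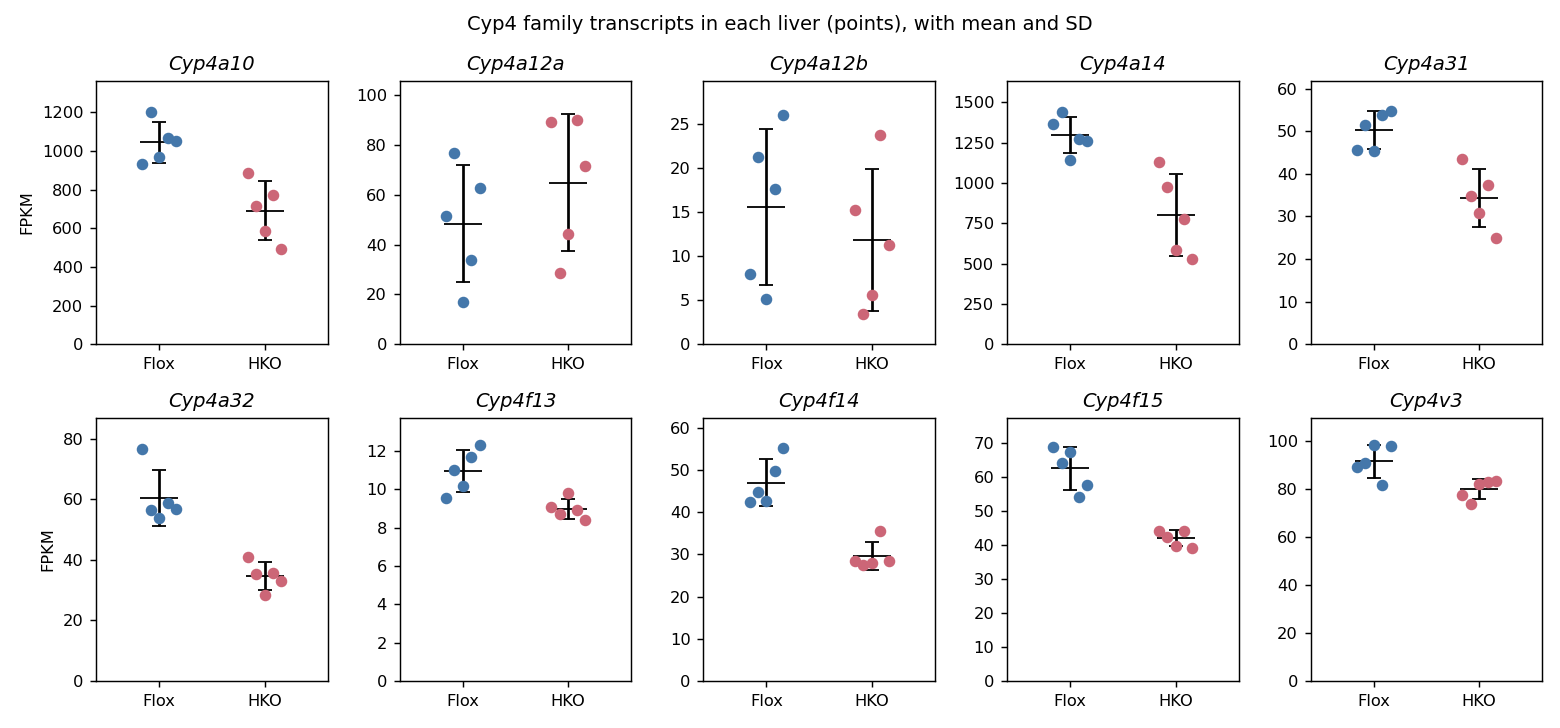
FPKM (vertical axis, from 0 in each panel) of each Cyp4 gene in the 5 Flox and 5 HKO livers. Points are livers, black lines the mean and SD. The groups are apart in 6 genes on this scale, the points of Cyp4f13 and Cyp4v3 overlap slightly, and those of Cyp4a12a and Cyp4a12b overlap over most of their range.

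The Cyp4f genes encode hydroxylases of leukotrienes and related fatty acids, and all 3 fell with little spread between livers. Cyp4f14 (ENSMUSG00000024292, chr17:32905070-32917342, minus strand), a leukotriene B4 hydroxylase of mouse liver, had 42.4, 44.9, 42.6, 49.8 and 55.3 FPKM in Flox 1 to 5 and 28.4, 27.6, 28.0, 35.4 and 28.5 FPKM in HKO 1 to 5. The groups were apart, and HKO 4 stood above the other HKO livers, which were nearly equal. Its log2 change was -0.89 (SE 0.096, edgeR adjusted p = 4.87e-04).

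Cyp4f15 (ENSMUSG00000073424, chr17:32685627-32703352, plus strand) had 69.0, 64.3, 67.6, 54.3 and 57.9 FPKM in Flox 1 to 5 and 44.1, 42.5, 39.9, 44.3 and 39.3 FPKM in HKO 1 to 5. All HKO livers lay in a narrow band below the Flox livers, and the log2 change was -0.79 (SE 0.086, edgeR adjusted p = 4.87e-04). Cyp4f13 (ENSMUSG00000024055, chr17:32924688-32947402, minus strand) was the lowest of the 10, with 9.55, 11.0, 10.2, 11.7 and 12.3 FPKM in Flox 1 to 5 and 9.05, 8.72, 9.80, 8.91 and 8.38 FPKM in HKO 1 to 5. HKO 3 was above Flox 1 on the FPKM scale, whereas the groups were apart on CPM with TMM scaling. Its log2 change was -0.50 (SE 0.088, edgeR adjusted p = 0.00511).

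Cyp4v3 (ENSMUSG00000079057), the mouse counterpart of human CYP4V2, a fatty acid hydroxylase whose loss causes a crystalline retinal dystrophy, was the steadiest member. It had 88.9, 91.0, 98.3, 81.5 and 97.9 FPKM in Flox 1 to 5 and 77.4, 73.8, 82.2, 82.8 and 83.5 FPKM in HKO 1 to 5. Flox 4 was below 3 of the HKO livers on the FPKM scale, and on TMM-scaled CPM the groups were apart. The log2 change was -0.42 (SE 0.065, edgeR adjusted p = 0.00284), the smallest of the 8 falls.

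The scale matters for these small falls. TMM factors were 0.896 to 0.965 in Flox and 0.998 to 1.16 in HKO, so TMM-scaled values of HKO livers are lower relative to FPKM. On log2(FPKM + 0.5) the median of all genes was 0.16 higher in HKO. All HKO livers were below all Flox livers in 6 of the 10 genes on FPKM, against 1.64% of tested genes. The 8 calls also passed with limma on that scale, without a correction for its shift of the median. Limma there called 405 of 12892 tested genes lower and 3031 higher, the background for its counts in the gene lists below.

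The RefSeq promoter table (GRCm38.p6) matched 5 of the 10 members, Cyp4a32, Cyp4f13, Cyp4f14, Cyp4f15 and Cyp4v3, and the 4 that hold a CCAAT box are shown. Each runs from 250 bases before to 50 bases after the annotated start, 5′ to 3′ on the strand of the gene. Cyp4f14 has 4 annotated starts, and its window is that of the most upstream one. Capitals mark ATTGG, which is the CCAAT box on the opposite strand. The windows are chr17:32947312-32947611 (minus) for Cyp4f13, chr17:32917307-32917606 (minus) for Cyp4f14, chr17:32685409-32685708 (plus) for Cyp4f15 and chr4:115600688-115600987 (plus) for Cyp4a32.
Cyp4f13: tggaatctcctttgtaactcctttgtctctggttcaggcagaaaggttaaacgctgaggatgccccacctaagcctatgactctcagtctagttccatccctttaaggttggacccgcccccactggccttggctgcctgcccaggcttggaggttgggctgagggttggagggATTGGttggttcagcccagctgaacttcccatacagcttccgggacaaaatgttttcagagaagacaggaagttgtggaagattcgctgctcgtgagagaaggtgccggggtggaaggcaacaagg
Cyp4f14: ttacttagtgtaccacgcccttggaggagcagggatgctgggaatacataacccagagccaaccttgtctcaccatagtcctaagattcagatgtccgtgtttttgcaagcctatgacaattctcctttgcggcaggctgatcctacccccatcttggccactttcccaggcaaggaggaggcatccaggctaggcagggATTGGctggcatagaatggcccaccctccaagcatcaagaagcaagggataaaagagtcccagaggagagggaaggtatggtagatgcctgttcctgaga
Cyp4f15: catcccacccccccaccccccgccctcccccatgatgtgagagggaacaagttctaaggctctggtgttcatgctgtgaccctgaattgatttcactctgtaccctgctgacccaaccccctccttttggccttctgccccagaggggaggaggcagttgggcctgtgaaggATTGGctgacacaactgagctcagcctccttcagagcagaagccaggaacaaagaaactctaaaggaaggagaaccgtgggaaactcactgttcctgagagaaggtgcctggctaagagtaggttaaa
Cyp4a32: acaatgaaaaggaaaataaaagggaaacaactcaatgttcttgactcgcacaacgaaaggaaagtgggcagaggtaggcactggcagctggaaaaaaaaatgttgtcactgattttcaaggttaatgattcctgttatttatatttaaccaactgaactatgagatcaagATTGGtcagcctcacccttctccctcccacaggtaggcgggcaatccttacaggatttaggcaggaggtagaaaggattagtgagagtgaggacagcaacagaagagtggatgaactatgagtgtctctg
The motif began 76, 50 and 78 bases before the start in Cyp4f13, Cyp4f14 and Cyp4f15, and 80 bases before it in Cyp4a32, always in the same orientation. It was not found in the window of Cyp4v3. CCAAT, searched on both strands, was in 37.4% of 32851 promoters. A direct repeat of the kind bound by PPARa with its partner RXR, AGGTCA repeated in the same direction with 1 base between, on either strand, was in 0 of these 5 windows and in 0.0396% of all promoters, and with any base allowed at position 4 of each AGGTCA in 0 of 5 and 0.381%. For so rare a repeat 0 of 5 windows carries no information on the members, and Cyp4a10 and Cyp4a14 had no window. TATAAA, searched on both strands, was in 1 of the 5 windows, that of Cyp4a32, and in 13.6% of all promoters. In Cyp4a32 it lies on the opposite strand and reads tttata in the printed sequence.

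Levels differed far more between members than between groups. The order by mean FPKM in Flox was Cyp4a14, Cyp4a10, Cyp4v3, Cyp4f15, Cyp4a32, Cyp4a31, Cyp4a12a, Cyp4f14, Cyp4a12b and Cyp4f13. Neighbours in this order were apart in all livers at 3 steps, Cyp4a10 over Cyp4v3, Cyp4v3 over Cyp4f15 and Cyp4f14 over Cyp4a12b, and overlapped at the other 6. In HKO the order had Cyp4a12a in the place after Cyp4v3, and neighbours were apart at 2 steps, Cyp4a10 over Cyp4v3 and Cyp4f14 over Cyp4a12b.

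HKO livers also differed among themselves. Leaving aside the Cyp4a12 pair, HKO 1 held the highest HKO value in 4 of 8 genes and HKO 5 the lowest in 5 of 8. The median of the 8 genes was 83.7% of the Flox mean FPKM in HKO 1, 68.9% in HKO 2, 60.5% in HKO 3, 74.4% in HKO 4 and 57.7% in HKO 5. HKO 5 was not low in all genes: Cyp4v3 stood at 91.3% of the Flox mean there, its highest value in HKO, whereas Cyp4a14 stood at 40.8%.

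**Figure D3:**
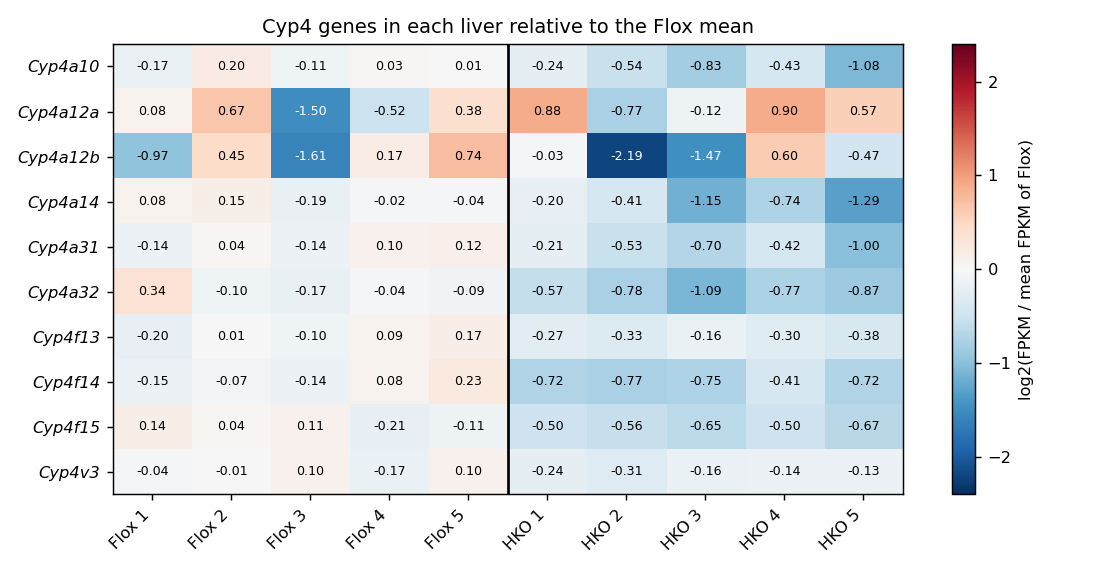
Log2 ratio of FPKM in each liver (columns) to the Flox mean of the same gene (rows), printed in each cell, with blue below and red above the Flox mean. In HKO all cells are negative except in the rows of Cyp4a12a and Cyp4a12b, and the PPARa-responsive genes Cyp4a10 and Cyp4a14 are lowest in HKO 3 and HKO 5.

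Whether related genes fell to the same degree was tested on the ratio of FPKM within each liver, for 6 pairs of relatives (exact two-sided permutation of 252 splits, smallest possible p = 0.00794, adjusted over the 6). The ratio of Cyp4f13 to Cyp4f14 was 0.225, 0.245, 0.239, 0.234 and 0.222 in Flox 1 to 5 and 0.318, 0.316, 0.350, 0.252 and 0.294 in HKO 1 to 5. Each HKO liver was above each Flox liver, and Cyp4f14 thus fell more than its neighbour. The mean ratio rose from 0.233 ± 0.00943 to 0.306 ± 0.0365 (exact permutation p = 0.00794, adjusted p = 0.0476). Without HKO 4 and HKO 5 the log2 difference was 0.49 against 0.39 with all livers, and the adjusted p was 0.107. With so few splits 0.107 is the smallest adjusted p that 1 pair alone can reach, so this fit cannot decide the call. The adjusted p was 0.0952 when Flox 2, Flox 3, Flox 4 or Flox 5 was left out.

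The ratio of Cyp4a12a to Cyp4a12b was 3.55 ± 1.76 in Flox and 6.46 ± 1.80 in HKO (exact permutation p = 0.0397, adjusted p = 0.119), with overlapping livers. It did not pass the adjustment, and reads shared by the pair enter both values. The other 4 pairs had adjusted p from 0.381 to 0.540. The ratio of Cyp4a14 to Cyp4a10 was 1.25 ± 0.124 in Flox and 1.14 ± 0.168 in HKO. That of Cyp4a31 to Cyp4a10 was 0.0482 ± 0.00350 and 0.0498 ± 0.00178, the steadiest ratio of the 6 in HKO. Cyp4a32 to Cyp4a31 was 1.22 ± 0.264 and 1.03 ± 0.168, and Cyp4f15 to Cyp4f14 was 1.36 ± 0.274 and 1.43 ± 0.125.

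**Figure D4:**
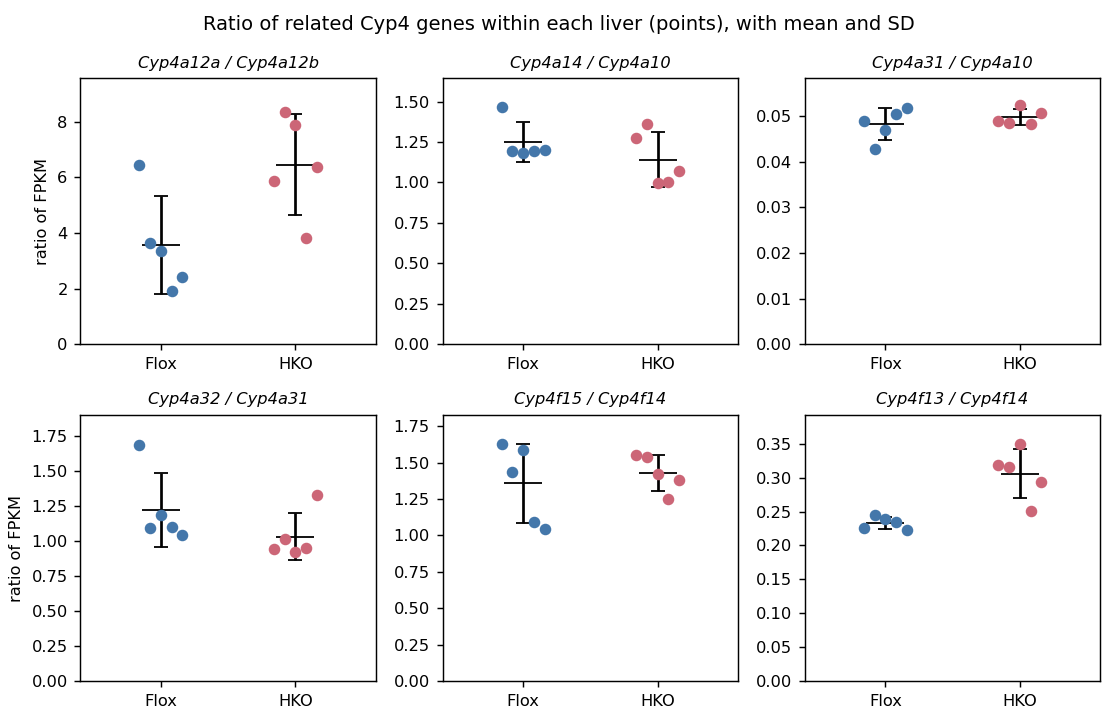
Ratio of FPKM (vertical axis, no unit, from 0) of 6 pairs of related Cyp4 genes within each of the 5 Flox and 5 HKO livers. Points are livers, black lines the mean and SD. The groups are apart in the pair Cyp4f13 and Cyp4f14, with Flox at 0.222 to 0.245 and HKO at 0.252 to 0.350.

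With group means removed, members varied together in part. Of 45 pairs, 40 had a positive Pearson r of log2 CPM over the 10 livers, with a range of -0.27 to 0.96, and 0 passed the adjustment over 45 (exact permutation of livers within groups), while 10 had an unadjusted p under 0.05. The highest was Cyp4a10 with Cyp4a31 (r = 0.957, rho = 0.758, exact permutation p = 0.00194, adjusted p = 0.0875), with r = 0.786 without the 2 livers farthest from the median of Cyp4a10. Cyp4a10 with Cyp4a14 had r = 0.909 (rho = 0.818, exact permutation p = 0.00792, adjusted p = 0.0919) and 0.692 without the 2 farthest livers. Cyp4a12a with Cyp4a12b had r = 0.849 (rho = 0.818, exact permutation p = 0.00535, adjusted p = 0.0919) and 0.619 without them. Cyp4a10 and Cyp4v3 had an r of -0.00119.

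Among 7812 other genes, 4 of the 5 most like Cyp4a14 over the 10 livers (Pearson r of group-mean-removed log2 CPM, given as a description) were Asl with 0.974, Glrx with 0.944, Gaa with 0.942 and Sult1a1 with 0.939. Those most like Cyp4a12a were Srp19 with 0.919, Togaram1 with 0.872, Timm9 with 0.867, Cdc123 with 0.851 and Tmem254b with 0.844. All points share their library's depth and scaling.

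The rest of the family was low in these livers. Of the other listed Cyp4 genes 5 were tested and 0 passed in either direction (edgeR adjusted p under 0.05). At an unadjusted p under 0.05 the count was 1, Cyp4f16, which was higher in HKO, and DESeq2 and limma each called 1 of the 5 higher at an adjusted p under 0.05. Cyp4b1 had 4.85 ± 1.32 FPKM in Flox and 6.45 ± 1.02 in HKO (log2 change 0.19, edgeR adjusted p = 0.550). Cyp4f17 had 7.90 ± 4.60 and 6.12 ± 1.30 FPKM (-0.59, adjusted p = 0.303), and Cyp4f16 had 0.372 ± 0.122 and 0.769 ± 0.205 FPKM (0.79, adjusted p = 0.0662). Cyp4f18 and Cyp4f39 were below 1 FPKM in all livers. Cyp4a29, Cyp4a30b and Cyp4f40 were not analysed here.

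The electron supply of P450 enzymes fell in part. Of 4 tested genes 2 were lower and 0 higher: Por, the oxidoreductase that passes electrons from NADPH to all microsomal P450s, had a log2 change of -0.75 (SE 0.18, edgeR adjusted p = 0.0241), and Cyb5a, the cytochrome b5 that assists them, -0.31 (SE 0.084, adjusted p = 0.0348). Neither passed without HKO 4 and HKO 5 (adjusted p = 0.138 and 0.128). Cyb5b at 0.11 and Cyb5r3 at 0.30 did not pass the test, and Cyb5r3 was higher without HKO 4 and HKO 5 (log2 change 0.45, adjusted p = 0.0297). The list is sensitive to scaling: DESeq2 called 2 lower and 0 higher, and limma on FPKM 1 lower and 2 higher.

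Some of the enzymes downstream of omega-hydroxylation were also lower. Of 7 alcohol and aldehyde dehydrogenases 4 were lower, 0 were higher, and the median was -0.40. Adh4, an alcohol dehydrogenase, went from 143 ± 7.82 to 71.3 ± 9.48 CPM (edgeR adjusted p = 2.92e-04). Aldh3a2, the fatty aldehyde dehydrogenase, had a log2 change of -0.46 (adjusted p = 0.00511), Adh5 -0.38 (adjusted p = 0.00722) and Aldh9a1 -0.40 (adjusted p = 0.00899). Leaving out HKO 4 and HKO 5, 4 were lower and 1 was higher, Aldh1a1 (log2 change 0.46, adjusted p = 0.0290, edgeR; named after its value was seen), and limma on FPKM called 4 lower and 1 higher. Of 15 genes for peroxisomal oxidation of the dicarboxylic acids 7 were lower and 0 higher, with a median of -0.39. Acaa1a, a peroxisomal thiolase, had a log2 change of -0.64 (adjusted p = 5.28e-04 by edgeR), Decr2 -0.48 (adjusted p = 0.00407), the acyl-CoA synthetase Acsl1 -0.67 (adjusted p = 0.00883) and Abcd3, a fatty acid importer of peroxisomes, -0.31 (adjusted p = 0.0101). Of the 15, 4 were lower without HKO 4 and HKO 5, with Acsl1 among those lost (adjusted p = 0.0561), and 4 were lower with limma on FPKM.

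The receptor and its other targets were read alongside, since Cyp4a genes are used as its marker genes. Ppara itself, named outside the rule for its role, had 25.2 ± 3.75 FPKM in Flox and 27.9 ± 3.68 in HKO (log2 change -0.081, edgeR adjusted p = 0.658). Of 34 PPARa targets outside the P450 family 17 were lower and 1 was higher, with a median of -0.37. The lower ones included Cpt2 of mitochondrial fatty acid import (-0.63, edgeR adjusted p = 4.13e-04), the fatty acid binding protein Fabp1 (-0.87, adjusted p = 0.00100), Acadvl (-0.40, adjusted p = 0.00381) and Ech1 (-0.49, adjusted p = 0.00404). The higher one was the fatty acid transporter Cd36, at 37.6 ± 14.6 FPKM in Flox and 92.4 ± 7.45 in HKO (1.08, adjusted p = 0.0157), named after its value was seen. Without HKO 4 and HKO 5, 10 of the 34 were lower, Cd36 no longer passed (adjusted p = 0.0506) and Ctsz was the 1 higher (log2 change 0.48, adjusted p = 0.0197, edgeR; named after its value was seen), and limma on FPKM called 10 lower and 4 higher. Of 16 genes for PPARa and its partners 1 was lower, Rxra at -0.26 (edgeR adjusted p = 0.0494), and 1 higher, Pparg at 0.80 (adjusted p = 0.00869). Rxra stood at 64.8 ± 5.85 FPKM in Flox and 63.3 ± 3.78 in HKO, so its call rests on the TMM scaling, and it was lost without HKO 4 and HKO 5 (adjusted p = 0.174).

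**Figure D5:**
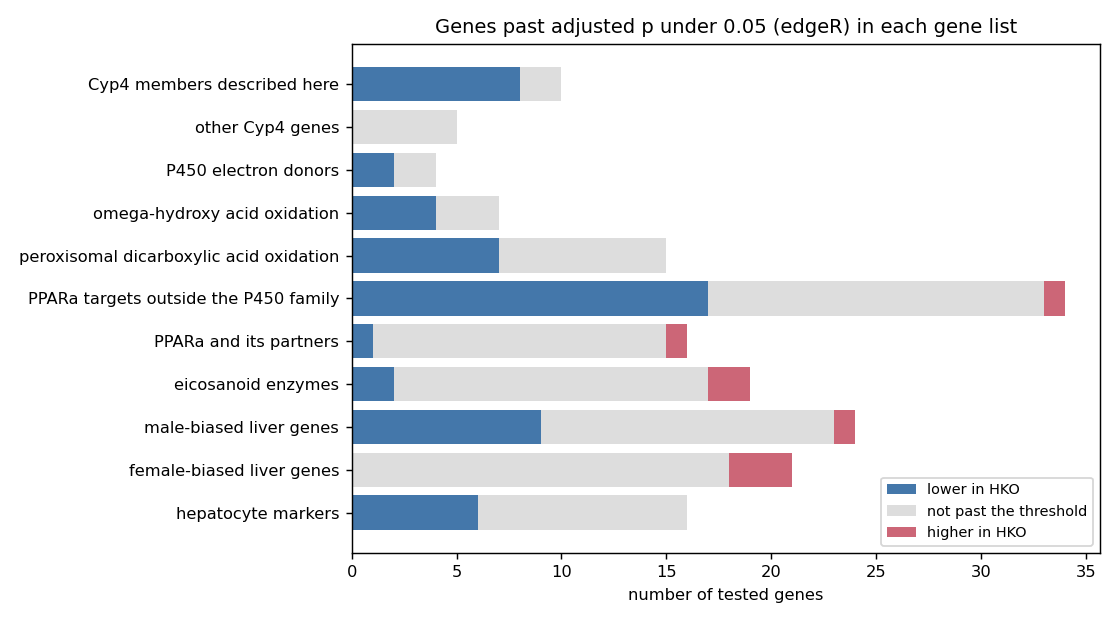
Number of tested genes (horizontal axis) lower in HKO, higher in HKO or not past an edgeR adjusted p of 0.05 in each gene list. The Cyp4 members have 8 lower of 10, the PPARa targets 17 lower and 1 higher of 34, and the hepatocyte markers 6 lower of 16.

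Since Cyp4a12a is male-biased, sex-biased liver genes were set beside it. Of 24 male-biased genes 9 were lower and 1, Ugt2b38 (named after its value was seen), was higher, with a median of -0.60; without HKO 4 and HKO 5 the counts were 6 and 0, with Selenbp2 and Elovl3 among those lost (adjusted p = 0.0637 and 0.0611), and limma on FPKM called 8 lower and 4 higher. The complement component C8b had a log2 change of -1.97 (edgeR adjusted p = 0.00288), Serpina1e -2.86 (adjusted p = 0.00613), Selenbp2 -2.29 (adjusted p = 0.00675) and the elongase Elovl3 -2.30 (adjusted p = 0.00687). Of 21 female-biased genes 0 were lower and 3 higher, with a median of 0.55. The steroid hydroxylase Cyp2a4 had 3.99 ± 1.76 FPKM in Flox and 124 ± 63.2 in HKO, and Sult3a1 and Cux2 were the others. Cyp4a12a did not pass in either direction. Cux2, a female-biased repressor under growth hormone control, had a log2 change of 0.94 (edgeR adjusted p = 0.0207), and 0.64 without HKO 4 and HKO 5, where it did not pass (adjusted p = 0.105). Without these livers 4 of 23 tested female-biased genes were higher and 0 lower. Of 18 tested genes of the growth hormone and androgen axis 2 were lower and 2, Cux2 among them, were higher (median -0.19). The lower 2 were Igf1 at -0.42 (edgeR adjusted p = 0.00842) and Igfals, which binds its product in plasma, at -0.58 (adjusted p = 0.00971). Leaving out HKO 4 and HKO 5, 2 were lower and 1 higher, and limma on FPKM called 1 lower and 2 higher.

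Arachidonic acid and leukotrienes, substrates of Cyp4a12 and Cyp4f enzymes, are also handled by other enzymes. Of 19 tested eicosanoid genes 2 were lower and 2 higher by edgeR, with a median of 0.051. DESeq2 called 3 lower and 4 higher, and limma on FPKM 2 lower and 6 higher. Ephx2, the soluble epoxide hydrolase, had a log2 change of -0.73 (edgeR adjusted p = 7.96e-04) and the epoxygenase Cyp2j5 -0.43 (adjusted p = 0.00356). Ptges at 1.34 (edgeR adjusted p = 0.0197) and Ptgr1 at 1.29 (adjusted p = 0.0332) were higher and stood below 2 FPKM on average. Without HKO 4 and HKO 5 neither of these passed (adjusted p = 0.119 and 0.154), 2 genes were lower, and the 1 higher was Ephx1, the microsomal epoxide hydrolase (log2 change 0.59, adjusted p = 0.0367, edgeR; named after its value was seen).

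Markers of some cell types also differed between the groups, and their part in the Cyp4 falls was not tested. Pericentral hepatocyte markers, from the zone where Cyp4a genes are known to be most active, had 4 of 14 lower and 0 higher (median -0.44). Periportal markers had 3 of 13 lower and 1 higher (median -0.34). DESeq2 called 6 lower in each of these 2 lists, with 1 pericentral and 2 periportal markers higher. In the edgeR fit without HKO 4 and HKO 5 the pericentral list had 6 lower and 0 higher (median -0.69). The periportal list had 2 lower and 2 higher there (median -0.27). Of macrophage markers 5 of 14, of stellate cell and fibroblast markers 5 of 11, and of cholangiocyte markers 4 of 9 were higher, with 0 lower in each list by edgeR, DESeq2 and limma or at an unadjusted p. Without HKO 4 and HKO 5 these counts were 3, 2 and 1. In other lists edgeR called 1 of 10 endothelial markers higher (median 0.34) and 1 of 8 T and B cell markers lower. By edgeR 0 of 5 neutrophil and 0 of 3 adipocyte markers passed. These counts depended on the test: DESeq2 called 4 endothelial markers higher and limma on FPKM 8, with 0 lower in either. Limma also called 3 neutrophil and 2 adipocyte markers higher, and 0 T and B cell markers in either direction. In the edgeR fit without HKO 4 and HKO 5 the endothelial count was 0, and 1 of 3 adipocyte markers was lower. Summed macrophage markers were 244 to 513 CPM in Flox and 376 to 468 in HKO, summed stellate and fibroblast markers 198 to 426 and 384 to 653, and summed cholangiocyte markers 68.4 to 87.2 and 105 to 147.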

How the data were processed

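Polyadenylated RNA from 10 livers (5 Flox, 5 HKO) was sequenced as strand-marked read pairs, per the labels' protocols. Each gene has estimated counts (whole numbers) and FPKM (fragments per length and depth) per liver, per the file headers. FPKM values are used as the authors deposited them. Tools listed in the submitters' processing notes are edgeR, DESeq2, StringTie 2.1.6, HISAT2 2.2.1 and cutadapt 1.9, with no roles given. The genome build and the treatment of shared reads are not given in the sources used here. Coordinates of all 10 members and Me1 equal those of GENCODE M21 (GRCm38).

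Counts were tested with edgeR 4.0.16 in R 4.3.3 (filterByExpr, TMM, robust quasi-likelihood test, HKO against Flox, Benjamini-Hochberg over 18065 genes, threshold 0.05), after the pipeline had been tested on simulated data. CPM are counts scaled to library size with TMM factors. Alternatives were RLE and upper-quartile scaling, DESeq2 1.42.0, limma 3.58.1 on log2(FPKM + 0.5, 0.1 or 1), no filter and a strict filter on low counts (at least 10 CPM in 5 livers), each liver left out, HKO 4 and HKO 5 left out, and near-identical copies summed. Removal of trends with GC content and length was chosen after seeing the data.

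The rule for named genes took all members, Me1, up to 4 genes with the smallest p in each list, the other tested Cyp4 genes, and the 5 genes most like Cyp4a14 and Cyp4a12a. Pseudogenes were left out, and a few items that the rule names are not reported here. Members and lists were chosen with earlier results of these data known. Numbers 1 to 5 only name the livers of a group, in accession order.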

Additional observations from a re-analysis of the deposited data

Results flagged for a closer look

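Of 20 groups examined (10 genes in 2 groups of 5 livers), 2 had a liver that stood apart from the other 4 by Dixon's test, which flags about 1 in 20 groups by chance. Cyp4a32 in Flox 1, at 76.6 FPKM, was above the other Flox livers at 53.7 to 58.9 FPKM. Cyp4f14 in HKO 4, at 35.4 FPKM, was above the other HKO livers at 27.6 to 28.5 FPKM. Both livers lie on their own group's side, and without Flox 1 or without HKO 4 the calls of both genes were kept.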

How the results depend on the processing

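No paired analysis was possible because the title numbers are not shared between the groups and the replicate numbers only name livers. Of the 8 members called lower, Cyp4a10, Cyp4a31, Cyp4a32, Cyp4f13, Cyp4f14, Cyp4f15 and Cyp4v3 kept their call under every alternative run, and Cyp4a14 lost it in 6, as given above. Cyp4a12a turned to -0.028 (edgeR adjusted p = 0.974) without Flox 3, with up to 0.40 when another liver was left out, and Cyp4a12b to 0.032 (adjusted p = 0.971) when summed with Cyp4a12a; neither was a call, and no count of members was made with summed copies because the number of units changes. The number of pairs whose ratio differed was 1, and ran from 0 to 2 with 1 liver left out. It was 0 without HKO 4 and HKO 5, where 1 pair alone could not pass because the splits are too few. Over all genes, 1156 were lower and 878 higher. DESeq2 called 1626 lower and 1566 higher. Limma called 405 lower and 3031 higher with a pseudocount of 0.5, 404 and 3034 with 0.1, and 406 and 3017 with 1, with the median of all genes 0.16, 0.18 and 0.13 higher in HKO. Without HKO 4 and HKO 5 the counts were 539 and 454. With 1 liver left out they ran from 691 to 1162 lower and from 498 to 1058 higher, both lowest without HKO 5. Other causes were not tested. The correlations were not rerun under the processing alternatives, and rho and r without the 2 farthest livers are given above for some pairs. What limits Cyp4a12a and Cyp4a12b was not tested.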
